A study of Mus musculus with 9 samples.

Results

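Complement, a branch of innate immunity, is described here through 7 mouse genes of its activation and control: C1ra, C1s1, C4b, C3, Cfb, Cfd and Serping1. The genes were taken by name, with no threshold on their values. In the array's annotation 4 of the 7 genes, C1ra, C1s1, Cfb and Serping1, had a probe set that carried their symbol alone, and each had exactly 1. These 4 are described among 18194 genes with such a probe set, of 45101 probe sets on each array. C4b had only a probe set shared with C4a, and C3 and Cfd were not analysed here.

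Expression was measured on 9 Affymetrix mouse arrays of total RNA from sorted bone marrow cells of FVB/NJ mice, negative for CD45.1 and for Ter119, an erythroid surface antigen. The 3 WT arrays came from wild type mice, the 3 E arrays from leukemic recipients in the early phase, with 1 to 5% leukemic cells in the marrow, and the 3 M arrays from leukemic recipients in the medium phase, with 5 to 50%. The labels call the arrays of a group biological replicates. They give no age, no oncogene and no source for the leukemia, and they do not say whether WT mice were transplanted. The question was how gene expression of the stroma, the non-blood cells that house blood formation, shifts as leukemia grows.

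Complement is a cascade of plasma proteases that marks targets and calls in phagocytes. In the classical pathway C1q binds a target, C1r activates C1s, and C1s cleaves C4 and C2 to build a convertase, while factor B supplies the protease of the alternative pathway convertase. The C1 inhibitor encoded by Serping1 blocks C1r and C1s and also proteases of the contact system. The liver makes most plasma complement, and fibroblasts, adipocytes and macrophages also make components locally.

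Values are deposited log2 MAS5 signals, and a difference of 1 is a doubling of signal. Each gene is given by its brightest probe set, and levels of different genes are not compared. The median over all probe sets averaged 5.64 in WT, 5.50 in E and 6.26 in M, and the poly-A spike-in controls were 2.01-fold brighter in M than in WT (two-sided exact permutation test over arrays, p = 0.1, which is the lowest value possible with 3 arrays a group). Scan or hybridisation order was not used here, so array handling and group cannot be told apart. M replicate 3 deviated from its group mean by a root mean square of 0.286, against 0.178 and 0.179 for the other M arrays. The sorted cells held strong erythroid signal in every group. Ermap, an erythroid membrane protein, averaged 13.89 in M and 14.22 in WT, and the 10 measured erythroid markers averaged 11.31 in M and 11.38 in WT. The 14 mesenchymal stromal markers averaged 11.71 in M and 7.59 in WT, so the labelled cell type had its markers well above the array median in M, with 2 of the 14 below that median in WT. In such bulk samples, fewer cells of a type and less RNA per cell cannot be told apart.

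The proteases of the classical pathway were brighter in M than in WT and E. Both passed the brightness filter, a mean of 6.83 over the 9 arrays, only through M, so their tests come from the fit over all 18194 genes. C1ra (probe set 1417009_at), which encodes mouse C1r, had 9.76, 9.89 and 10.62 in the 3 M arrays, against 5.27, 5.27 and 5.17 in WT. The E arrays had 5.38, 5.50 and 4.91. All M arrays lay above all WT and E arrays, and WT and E overlapped. In M the C1ra signal was 28.9 times that in WT, with a log2 difference of 4.85 ± 0.27 (SE, limma without the filter, all 9 arrays, Benjamini-Hochberg adjusted p = 3.8e-08). In M against E the log2 difference was 4.83 ± 0.27 (limma without the filter, adjusted p = 3.1e-08), and in E against WT it was 0.03 ± 0.27 (limma without the filter, adjusted p = 0.99). In WT the C1ra level of 5.24 ± 0.05 (SD, n = 3) was below the array median of 5.64, where a signal may be mostly background.

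C1s1 (probe set 1424041_s_at), which encodes C1s, the protease that C1r activates, went the same way. It had 10.83, 10.96 and 12.02 in M, against 6.08, 5.87 and 6.09 in WT. The E arrays had 6.29, 5.23 and 5.75. M replicate 3 was the highest array, the M arrays lay clear of the rest, and E spanned the whole WT range. The log2 difference was 5.26 ± 0.32 in M against WT (SE, limma without the filter, adjusted p = 6.9e-08) and 5.51 ± 0.32 in M against E (limma without the filter, adjusted p = 3.6e-08). In E against WT it was -0.26 ± 0.32 (limma without the filter, adjusted p = 0.83). The suffix of this probe set marks probes that can match transcripts of several genes, and mice have a close copy, C1s2, so the signal may include it.

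C1ra and C1s1 are listed next to each other on chromosome 6 in RefSeq and were both higher in M, so their promoter windows are shown. RefSeq (GRCm38.p6) gave windows of 250 bases before to 50 after the start for 2 of the 4 measured genes. The C1ra window is chr6:124512371-124512670 on the plus strand and the C1s1 window chr6:124542310-124542609 on the minus strand. Each is written 5′ to 3′ on its gene's strand, with motif matches in capitals.

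C1ra: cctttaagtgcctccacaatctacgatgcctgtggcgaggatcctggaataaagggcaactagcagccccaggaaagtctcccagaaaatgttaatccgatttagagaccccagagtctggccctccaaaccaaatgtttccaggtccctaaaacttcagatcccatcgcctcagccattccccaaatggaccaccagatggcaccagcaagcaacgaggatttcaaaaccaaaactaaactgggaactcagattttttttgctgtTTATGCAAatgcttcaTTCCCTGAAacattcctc

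C1s1: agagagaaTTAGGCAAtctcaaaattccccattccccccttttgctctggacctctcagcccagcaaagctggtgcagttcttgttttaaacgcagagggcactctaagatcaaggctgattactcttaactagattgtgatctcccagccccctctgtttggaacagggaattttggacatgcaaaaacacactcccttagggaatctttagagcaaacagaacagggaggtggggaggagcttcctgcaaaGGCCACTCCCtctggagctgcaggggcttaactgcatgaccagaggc

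The motifs were searched on both strands: TTCNNNGAA, the GAS element that STAT proteins bind; TTGCNNAA, a C/EBP element; an NF-kB element, GGG and CC with 5 bases between; an IRF element, GAAA repeated after 2 bases; TATAAA; and CCAAT. The C1ra window held a GAS match, TTCCCTGAA, at position 33 counted from the start, found in 8.3% of 32851 promoters, and a C/EBP match, TTATGCAA, at position 17, found in 10.8%. The C1s1 window held a C/EBP match, TTAGGCAA, at position -242, and an NF-kB match, GGCCACTCCC, at position 4, a motif present in 50.8% of promoters. A second listed C1s1 start has a window that overlaps this one, holds the NF-kB match and leaves out the C/EBP match. None of these matches overlapped another, and no window held an IRF, TATAAA or CCAAT match; these letters are a description of the windows only.

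Serping1 (probe set 1416625_at), whose product inhibits both of these proteases, had 13.67, 13.50 and 13.74 in M, against 8.31, 8.42 and 8.58 in WT. The E arrays had 8.50, 8.28 and 8.45. The spread within each group was small, the M arrays stood more than 4 units above the others, and WT and E overlapped. In M the Serping1 signal was 36.7 times that in WT, with a log2 difference of 5.20 ± 0.10 (SE, limma, adjusted p = 4.7e-11). The difference was 5.23 ± 0.10 in M against E (limma, adjusted p = 6.1e-11) and -0.03 ± 0.10 in E against WT (limma, adjusted p = 0.94). Its mean was above the brightness filter of 6.83 in WT and E as well as in M.

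Cfb (probe set 1417314_at), which encodes factor B, had a mean under the brightness filter, so its tests also come from the fit over all 18194 genes. It had 7.64, 7.52 and 8.19 in M, against 4.24, 5.71 and 3.79 in WT. The E arrays had 4.64, 4.16 and 4.77. The M arrays lay above all others, while WT replicate 2 was 1 to 2 units above the other WT arrays and above all E arrays. In M the Cfb signal was 9.21 times that in WT, with a log2 difference of 3.20 ± 0.50 (SE, limma without the filter, adjusted p = 1.9e-04). The difference was 3.26 in M against E (limma without the filter, adjusted p = 1.4e-04) and -0.06 in E against WT (limma without the filter, adjusted p = 0.99). WT and E means of 4.58 and 4.52 were below the array medians, where a signal may be mostly background. With an offset of 64 on the linear scale the M against WT difference of Cfb was 1.65.

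**Figure D1:**
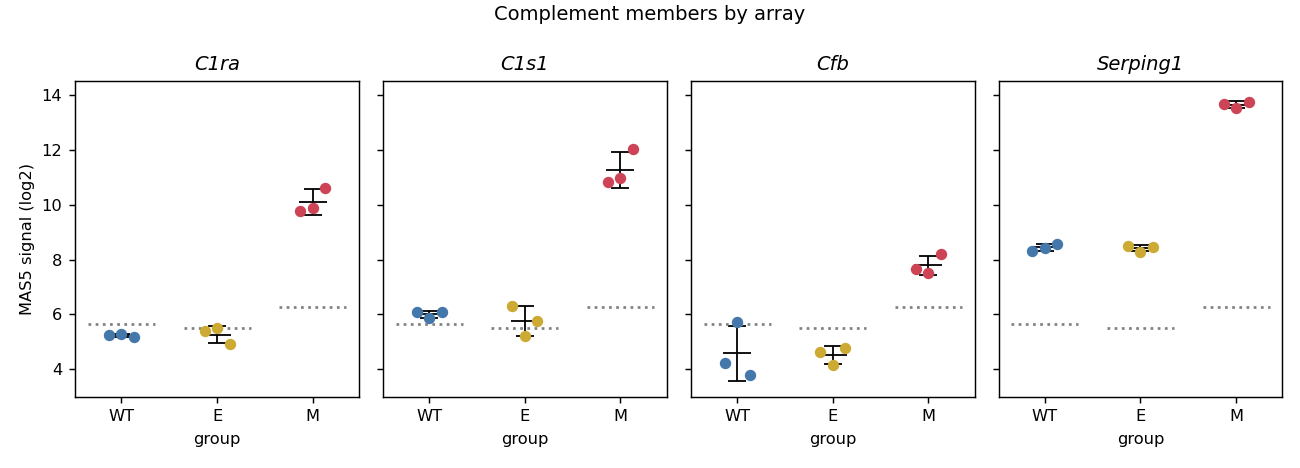
Log2 MAS5 signal (vertical axis) of C1ra, C1s1, Cfb and Serping1 in each WT, E and M array (points, n = 3 each), with mean and SD (bars) and the group's median over all probe sets (dotted). For every gene the 3 M points lie above all WT and E points, and WT and E overlap.

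Set side by side, 4 of the 4 measured genes were higher in M than in WT and 4 of 4 were higher in M than in E, by limma over all 18194 genes, where 22.2% of genes were called higher in M against WT and 24.1% in M against E. Among the 9097 genes over the brightness filter these shares were 25.3% and 26.1%. Arrays did not overlap for 4 of 4 in M against WT, where 28.3% of all genes had all M arrays higher, and for 4 of 4 in M against E, where 30.5% did. No gene of the 4 was called in E against WT, where 0.852% of all genes and 2.11% of those over the filter were; at an unadjusted p under 0.05 the count was also 0. C1ra and C1s1 passed the brightness filter only through M, so the list is counted over all genes alone. The median log2 difference of the 4 in M against WT was 5.03, beside 0.11 over all genes. The differences of C1ra, C1s1 and Serping1 were not tested against each other.

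The change fell in the second step. The difference between steps, M minus E less E minus WT, was, by limma without the filter, 4.80 for C1ra (adjusted p = 1.2e-05), 5.77 for C1s1 (adjusted p = 9.5e-06), 5.25 for Serping1 (adjusted p = 3.6e-09) and 3.31 for Cfb (adjusted p = 0.011). The Cfb call was lost with quantile normalization and without E replicate 2. Of all 18194 genes, 30.6% were called for this difference, and 51.2% of those over the filter, so a second step unlike the first was common on these arrays. Both steps share the E arrays. Without M replicate 3 the M against WT differences were 4.59 for C1ra, 4.88 for C1s1, 5.15 for Serping1 and 3.00 for Cfb. Scaled on the spike-ins they were 3.84, 4.25, 4.19 and 2.19 in the same order, all with adjusted p under 0.05. M replicate 3 was the highest array for all 4 genes. Among the M arrays it also had the highest mean of mesenchymal (11.95), pericyte and smooth muscle (7.74), endothelial (7.35), granulocyte (12.61), pan-leukocyte (10.50), macrophage (5.49) and acute phase genes (10.57). Its means of erythroid (10.70) and hepatocyte genes (2.92) were the lowest of the 3. For adipocyte genes (7.55) and the other complement genes described below (6.05) it lay between the other M arrays. The part of this in the differences was not tested.

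The profiles of C1ra, C1s1 and Serping1 lay closer to each other than to that of Cfb. With each gene centred on its own mean, the root mean square difference over the 9 arrays was 0.326 between C1ra and Serping1, 0.369 between C1s1 and Serping1 and 0.437 between C1ra and C1s1. Cfb differed from these genes by 0.931 to 1.17. The distance is not scaled, so it also takes in the smaller rise of Cfb in M (3.20) and the spread of its dim WT arrays. Among tested genes, the 5 nearest to the mean profile of the 4 were Sfrp4 (0.179), a secreted Wnt antagonist, Cdh11 (0.201), a mesenchymal cadherin, Gpx8 (0.206), Egr2 (0.207) and Dact1 (0.214). Their log2 differences in M against WT were between 4.40 and 4.91, a size that follows from picking them by this distance. Candidates were genes over the brightness filter, which a gene can pass through M alone. The nearest single gene was Dpt, a matrix protein of skin and connective tissue, for C1ra (0.152), Wif1, a Wnt inhibitor, for C1s1 (0.167), Efemp1, a fibulin, for Serping1 (0.177) and Aebp1 for Cfb (0.334).

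Genes that flank the members on the chromosome were looked up after the values were seen. Beyond C1ra and C1s1 the nearest measured genes on chromosome 6 were Clstn3, at 7.42 ± 0.54 in M and 7.13 ± 0.18 in WT (SD, n = 3; log2 difference 0.29, limma adjusted p = 0.35), and Lpcat3, a lysophospholipid acyltransferase, which fell by 0.76 (limma, adjusted p = 6.4e-04). Next to Cfb on chromosome 17, Nelfe, a subunit of a transcription elongation factor, fell by 0.78 in M against WT (limma, adjusted p = 5.4e-05), and on the other side lay C2. The nearest measured genes to Serping1 on chromosome 2, Ypel4 and Ube2l6, had differences of 0.21 and 0.10 (limma, adjusted p = 0.80 and 0.76). Of these 5 flanking genes that are not complement genes, none was called higher in M than in WT, beside 25.3% of genes over the filter. Genes that flank C3, C4b and Cfd were not tested.

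The rest of the system was followed through 48 other complement genes, of which 40 had a probe set of their own. Without the brightness filter, 10 of the 40 were higher in M than in WT, 3 were lower and 27 did not pass (limma), beside 22.2% higher and 21.1% lower over all genes. Their median log2 difference was 0.87, beside 0.11 over all genes. In E against WT none was higher and 2 were lower (limma), beside 0.693% lower over all genes, with 0 higher and 4 lower at an unadjusted p under 0.05. The higher count fell to 8 without M replicate 3 and to 6 when arrays were centred on their medians. Scaled on the spike-ins it fell to 4, with 6 lower. Among the 9097 genes over the brightness filter, 2358 were called higher and 3976 lower without M replicate 3. With median-centred arrays 1262 of these genes were higher and 6639 lower, and on spike-in scaling 966 were higher and 7222 lower. The share of the list called higher was 10 of 40, near the share of all genes.

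**Figure D2:**
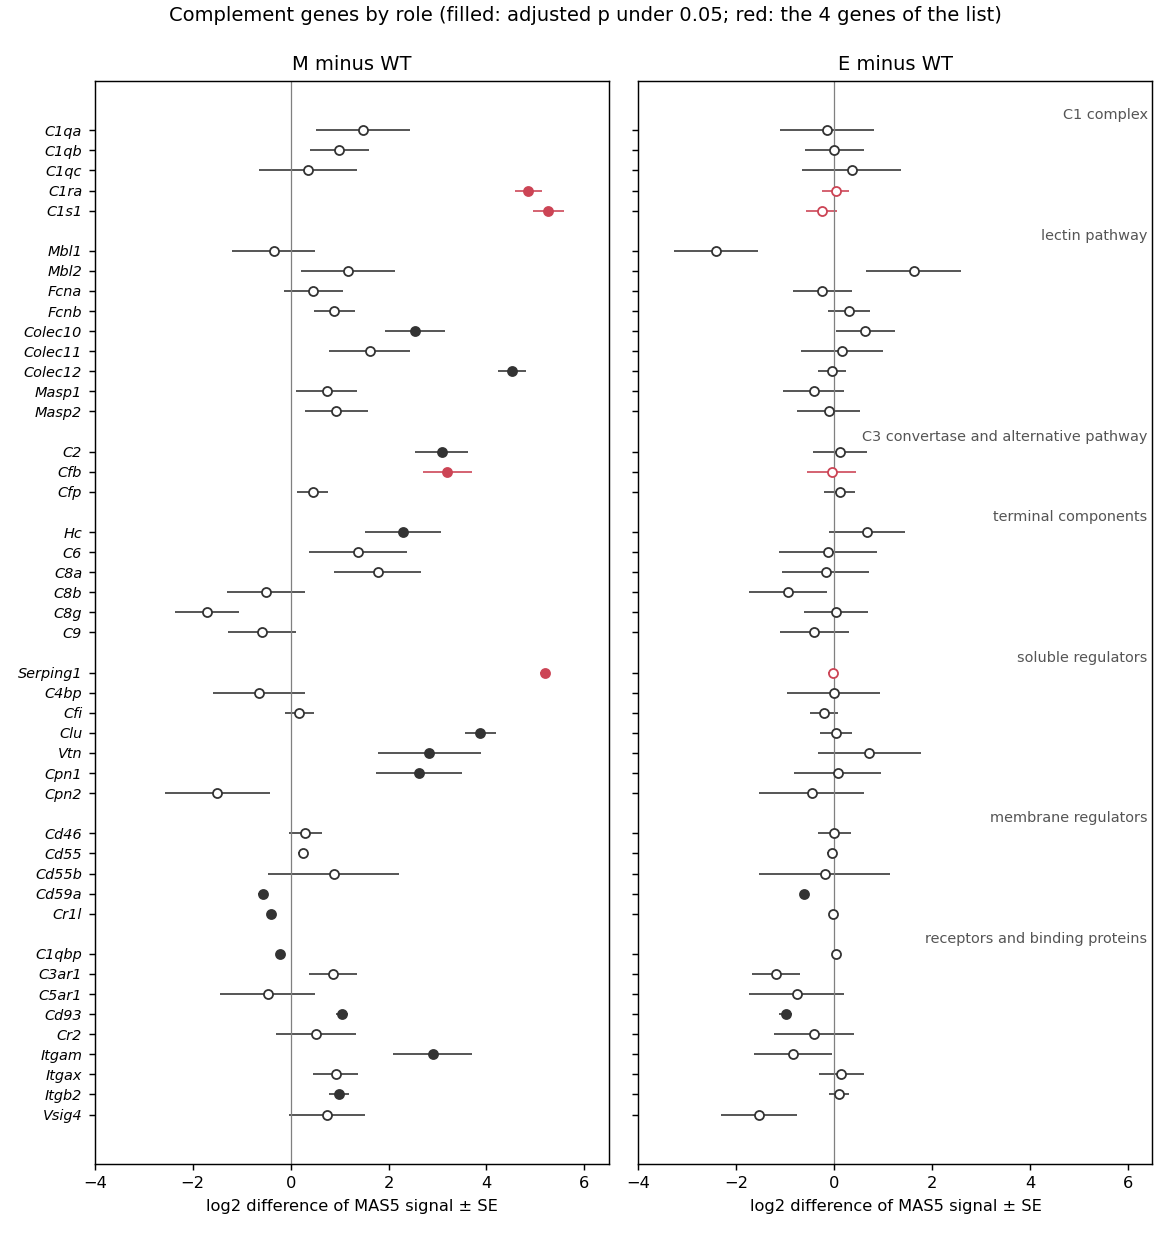
Log2 difference ± SE (horizontal axis, limma without the brightness filter) of 44 complement genes by role, for M minus WT (left) and E minus WT (right); filled points have an adjusted p under 0.05, and red points are C1ra, C1s1, Cfb and Serping1. The red points lie between 3.20 and 5.26 on the left and near 0 on the right, and only Cd59a and Cd93 are filled on the right.

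The recognition molecule of the classical pathway was dim on all arrays. C1qa, a chain of C1q made chiefly by macrophages, had 3.76, 4.91 and 1.62 in M, against 1.44, 2.59 and 1.84 in WT (limma without the filter, adjusted p = 0.25). None of the 3 C1q chains was called in any comparison. In the lectin pathway 2 of 9 genes were higher in M than in WT (limma without the filter), close to the 22.2% of all genes. Colec12, a scavenger collectin of the cell surface, had 9.53, 9.74 and 10.40 in M, against 5.29, 5.01 and 5.80 in WT, with E between 5.25 and 5.37. Its log2 difference was 4.52 ± 0.29 (SE, limma without the filter, which it passed only through M; adjusted p = 1.0e-07), and the M arrays lay clear of all others. The Colec12 means of 5.37 in WT and 5.32 in E were below the array medians of those groups, where a signal may be mostly background. Colec10, a secreted collectin, averaged 6.15 ± 0.08 in M and 3.61 ± 1.18 in WT (SD, n = 3), a difference of 2.54 (limma without the filter, adjusted p = 0.0042). Both means were below the array medians of 6.26 and 5.64, where a signal may be mostly background. On spike-in scaling the call was lost (limma without the filter, adjusted p = 0.055).

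Masp1, a lectin pathway protease, was named after its values were seen, because its probe sets disagreed. Its brightest probe set had 5.77 ± 0.53 in M and 5.04 ± 1.09 in WT (SD, n = 3), a difference of 0.73 that was not called. Among its 5 probe sets, 2 were called, with differences of 4.69 and 3.14. Which of them follows the Masp1 transcript was not tested.

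Among convertase components and the alternative pathway, C2, the classical counterpart of factor B and its neighbour on chromosome 17, was also higher in M. C2 had 8.04, 8.41 and 8.85 in M, against 5.26, 4.38 and 6.42 in WT. The E arrays had 5.25, 4.62 and 6.52, so M lay above both other groups, which overlapped. The log2 difference in M against WT was 3.08 ± 0.55 (SE, limma without the filter, adjusted p = 5.2e-04), and its 3 probe sets gave 3.26, 3.08 and 5.61. The C2 means of 5.35 in WT and 5.46 in E were below the array medians, where a signal may be mostly background. Cfp, properdin, which stabilises the alternative pathway convertase, averaged 6.93 ± 0.44 in M and 6.48 ± 0.18 in WT (SD, n = 3; difference 0.45, limma without the filter, adjusted p = 0.29).

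Of 6 measured terminal components, 1 was called in M against WT, beside 22.2% higher and 21.1% lower over all genes. Hc encodes C5, of which FVB/NJ mice carry a loss-of-function allele, and it had 4.76, 4.27 and 4.07 in M, against 1.68, 2.04 and 2.51 in WT (log2 difference 2.29, limma without the filter, adjusted p = 0.031). All these levels are below the array medians. The call was lost in 8 of 21 alternatives, among them without WT replicate 1, without WT replicate 2 and without any 1 of the M replicates, so it rests on a thin margin.

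Soluble regulators other than Serping1 gave 3 higher of 6 in M against WT, beside 22.2% of all genes. Clu, clusterin, which keeps the terminal complex from inserting into membranes, had 11.03, 10.90 and 12.49 in M, against 7.75, 7.25 and 7.79 in WT, with E at 7.71, 7.61 and 7.59. Its log2 difference was 3.88 ± 0.34 (SE, limma, adjusted p = 2.4e-06), M replicate 3 was again the highest, and all 4 of its probe sets were called higher. Cpn1, a subunit of the carboxypeptidase that trims anaphylatoxins, averaged 5.08 ± 0.40 in M and 2.45 ± 0.17 in WT (SD, n = 3; limma without the filter, adjusted p = 0.029). Both means were below the array medians, where a signal may be mostly background, and the Cpn1 call was lost in 10 of 21 alternatives. The third was Vtn, vitronectin, named after its values were seen, with a difference of 2.83 (limma without the filter, adjusted p = 0.046). Its WT arrays had 0.64, 4.91 and 4.91, below the array median of 5.64. Over all one-symbol probe sets its adjusted p was 0.053 (limma), and its other probe set gave -0.09 (limma, adjusted p = 0.94). Cfi, factor I, which degrades activated components, averaged 6.19 ± 0.04 in M and 6.01 ± 0.11 in WT (difference 0.18, limma without the filter, adjusted p = 0.67).

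Of 5 measured membrane regulators, each by its brightest probe set, 2 were lower and none was higher in M than in WT. These counts are by limma without the filter, beside 21.1% lower and 22.2% higher over all genes. Cd59a, which blocks the terminal complex on host cells, had 10.76, 10.65 and 10.77 in M, against 11.10, 11.45 and 11.35 in WT, with E at 10.70, 10.62 and 10.72. It fell by 0.57 in M against WT (limma, adjusted p = 2.2e-04) and by 0.62 in E against WT (limma, adjusted p = 0.0042), where the E arrays lay below all WT arrays. The other Cd59a probe set gave -0.76 in M against WT (limma over all one-symbol probe sets, adjusted p = 5.7e-04). In E against WT it gave -0.44 and was not called (same fit, adjusted p = 0.25), and its E and WT arrays overlapped. The E against WT call of the brightest probe set was lost when arrays were scaled on the spike-ins. Over all alternatives the E against WT difference lay between -0.72 and -0.48. Cr1l, known as Crry, a rodent regulator of the convertases, fell by 0.41 in M against WT (limma, adjusted p = 3.0e-04), with 11.63 to 11.78 in M and 12.07 to 12.18 in WT; the other probe sets gave 0.05 and -0.41. Cd55, decay-accelerating factor, averaged 9.85 ± 0.16 in M and 9.61 ± 0.03 in WT (SD, n = 3; difference 0.24, limma, adjusted p = 0.048), but its difference was -0.39 with arrays centred on their medians and -0.77 scaled on the spike-ins. The call did not hold in 16 of 22 alternatives. Its other probe sets both gave 1.15, with all M arrays above all WT arrays. Both were called higher (limma over all one-symbol probe sets, adjusted p = 2.9e-05 and 3.8e-05).

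Of 9 receptors and binding proteins, 3 were higher and 1 lower in M than in WT (limma without the filter), beside 22.2% and 21.1% of all genes. Cd93, once described as a C1q receptor and a marker of endothelial and early blood cells, had 9.93, 9.84 and 10.31 in M, against 8.89 to 9.04 in WT, with E at 7.93, 7.92 and 8.11. It fell by 0.99 in E against WT (limma, adjusted p = 0.0022) and was higher by 1.05 in M against WT (limma, adjusted p = 3.6e-05), a rise that shrank to 0.04 on spike-in scaling. The groups did not overlap. Of its 5 probe sets, 2 were called higher in M than in WT. When the probe sets of a gene were averaged, the E against WT and M against WT calls of Cd93 were both lost. Itgam and Itgb2, the chains of complement receptor CR3 on myeloid cells, were higher by 2.90 (limma without the filter, adjusted p = 0.010) and 0.99 (limma, adjusted p = 0.0014) in M against WT, and Itgb2 had -0.02 on spike-in scaling. The WT mean of Itgam, 3.44, was below the array median of 5.64, where a signal may be mostly background. C3ar1, an anaphylatoxin receptor, had 5.39, 5.83 and 5.39 in M, against 4.66, 4.81 and 4.52 in WT (limma without the filter, adjusted p = 0.18), and was higher by 2.07 in M against E (limma without the filter, adjusted p = 0.0037). The C3ar1 means of 5.54 in M, 4.67 in WT and 3.47 in E were below the array medians, where a signal may be mostly background. The M against E call was lost on spike-in scaling and with probe sets averaged. Its other probe sets gave 0.31 and 2.07 in M against E. In E against WT they gave 2.19 and -1.05, beside -1.20 for the brightest. C1qbp, a mitochondrial protein that binds C1q, fell by 0.22 in M against WT (limma, adjusted p = 0.021). That call was lost without the intensity trend and without WT replicate 3. The other C1qbp probe set fell by 0.56 in M against WT (limma over all one-symbol probe sets, adjusted p = 1.2e-04), with all M arrays below all WT arrays.

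**Figure D3:**
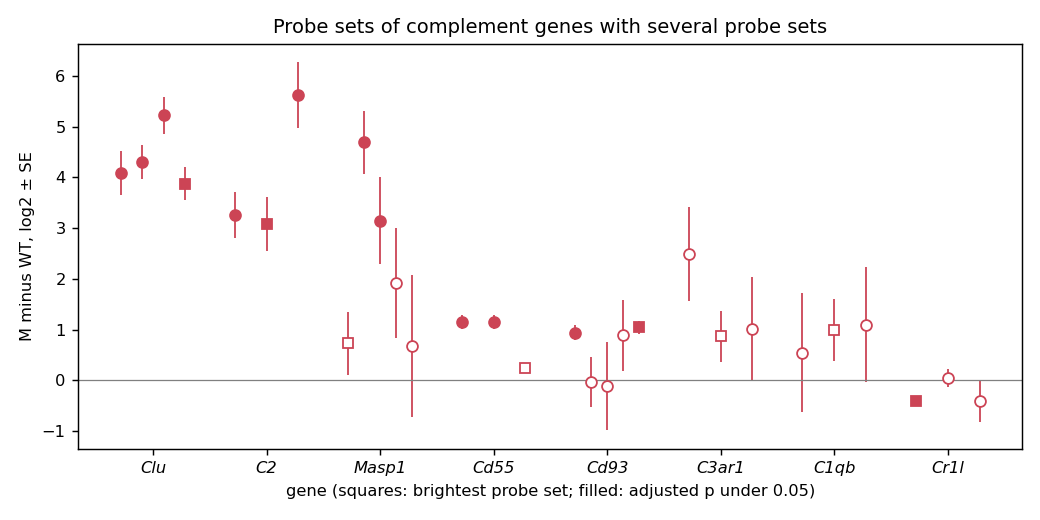
Log2 difference ± SE in M minus WT (vertical axis) of every one-symbol probe set of 8 complement genes with several; squares are the brightest probe set of a gene and filled symbols have an adjusted p under 0.05 (limma over all one-symbol probe sets). The 4 Clu probe sets lie between 3.88 and 5.23, while those of Masp1 range from 0.68 to 4.69.

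Complement genes are known targets of acute phase signalling through IL-6, STAT3, C/EBP and NF-kB, and 19 of 20 listed genes of that kind were measured. Without the filter, 18 of the 19 were higher in M than in WT and none was lower (limma), with a median log2 difference of 2.62, beside 22.2% higher and a median of 0.11 over all genes. Ifngr1, an interferon gamma receptor chain, averaged 11.25 in M and 11.13 in WT and did not pass. Lcn2, lipocalin 2, had 10.66, 10.42 and 11.21 in M, against 5.03, 4.90 and 4.53 in WT (log2 difference 5.94, limma without the filter, adjusted p = 1.2e-09). It was also higher in E than in WT, by 2.32 (limma without the filter, adjusted p = 2.1e-04). Its WT levels were below the array median of 5.64, where a signal may be mostly background. Lcn2 stands in the granulocyte list too.

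Hp, haptoglobin, averaged 12.30 ± 0.12 in M and 7.42 ± 0.26 in WT (SD, n = 3; limma, adjusted p = 1.4e-09), and Socs3, the feedback inhibitor of STAT3 signalling, was higher by 5.06 ± 0.19 in M against WT (SE, limma, adjusted p = 3.8e-09). The factors Cebpd and Cebpb were each higher by 2.62 in M against WT. Osmr, the oncostatin M receptor, was higher by 3.45 in M against WT and fell by 0.97 in E against WT (limma, adjusted p = 5.3e-08 and 0.023). Under spike-in scaling 14 of the 19 were called higher in M than in WT and 1 lower. In that setting 966 of the 9097 genes over the brightness filter were called higher and 7222 lower. The list was chosen with earlier results of these data known.

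Markers of several cell types moved in the same comparison. All 14 mesenchymal stromal genes were higher in M than in WT (limma without the filter), by 1.20 to 5.98 with a median of 4.18, beside 22.2% higher and a median of 0.11 over all genes. The differences of C1ra, C1s1, Serping1 and Cfb lie inside that range. The summed linear signal of the list was 94985 to 120784 in M and 6394 to 6982 in WT. Col3a1, a fibrillar collagen, averaged 14.62 ± 0.15 in M and 10.41 ± 0.15 in WT, and Dcn, decorin, 14.56 ± 0.30 in M and 10.42 ± 0.04 in WT (SD, n = 3). All 10 measured granulocyte genes were higher too, with sums of 93442 to 112954 in M and 9895 to 10981 in WT. S100a8 averaged 15.13 in M and 9.48 in WT, and Mpo 13.43 in M and 12.31 in WT. In E against WT 5 of the 10 granulocyte genes and 1 of the 14 mesenchymal genes were higher (limma without the filter), beside 0.159% of all genes. In the same fit 1 granulocyte gene and 0 mesenchymal genes were lower, beside 0.693% of all genes.

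The counts of the other lists, by limma without the filter in M against WT, stand beside 22.2% higher and 21.1% lower over all genes. Of 13 macrophage genes, 4 were higher and 1 lower, with sums of 1506 to 1744 in M and 1104 to 1263 in WT. Csf1r, the macrophage growth factor receptor, averaged 9.53 in M and 9.66 in WT (limma, adjusted p = 0.36), Mrc1 6.89 in M and 6.05 in WT, and the 3 C1q genes were below the array median in both. Adipocyte genes gave 6 of 11 higher, with Lpl at 12.38 in M and 7.53 in WT and Car3 at 11.36 in M and 10.31 in WT. Endothelial genes gave 7 of 10 higher and 1 lower, with Esam higher by 1.77 and Eng, which fell by 0.35. Pericyte and smooth muscle genes gave 5 of 8 higher, with Cspg4 at 10.20 in M and 7.24 in WT and Rgs5 at 10.23 in M and 6.52 in WT. Pan-leukocyte genes gave 7 of 9 higher and 1 lower, with Laptm5 higher by 0.52 and Ptpn6, which fell by 0.31.

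Erythroid genes gave none higher and 4 of 10 lower, with Tfrc at 13.88 in M and 14.03 in WT. No hepatocyte gene passed in either direction. Alb averaged 5.55 in M and 5.36 in WT, Ttr 3.88 in M and 3.94 in WT, and the 5 measured hepatocyte genes were below the array median in every group. No listed marker was at exactly 0 on all arrays of a group. The part that changes in cell makeup have in the complement differences was not tested.

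**Figure D4:**
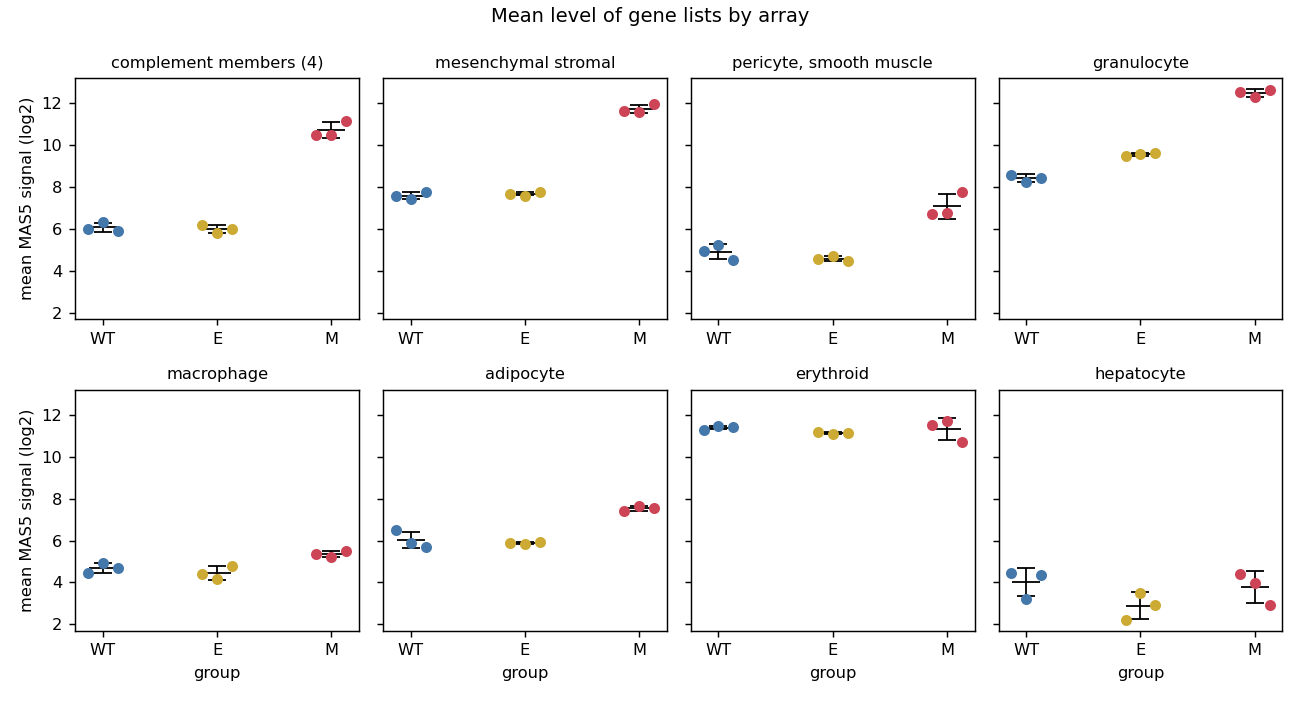
Mean log2 signal (vertical axis) of the 4 complement genes and of 7 marker lists in each WT, E and M array (points, n = 3 each), with mean and SD (bars). In the complement, mesenchymal, pericyte, adipocyte and macrophage panels all M points lie above all WT and E points, which overlap. The mean of the granulocyte list is already higher in E, though 1 of its 10 genes was called lower there (limma without the filter). Hepatocyte means stay below 5 in all arrays.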

How the data were processed

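Arrays were hybridised with biotin-labelled cRNA made by 3′ labelling of total RNA, per the labels' protocols. The deposited values are log2 signals from MAS5, per the submitters' processing notes (version not given); trimmed by 2% at either end, every array had a mean linear signal of 500.0, and values were used as deposited. Their number limits the precision, 3 arrays a group. Annotation gave 34958 probe sets 1 symbol and 932 several, which were left out. The brightest one-symbol probe set by mean stood for a gene (18194 genes), and the 9097 genes at or above 6.83 were tested. Genes below that limit, and C1ra, C1s1, Colec12 and Lcn2, which passed it through M, are given from the fit over all 18194; the filtered fit made the same calls for these 4. The test was limma's (version 3.58.1, R 4.3.3; all 9 arrays, 1 mean per group, intensity trend, Benjamini-Hochberg, called under 0.05). It was first tested on simulated data. p-values measure only the spread between these arrays.

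Members, lists and tests were chosen with earlier results of these data known. Genes named are the 7 members; of the other complement genes the 12 with the smallest p in M against WT plus Cfi, Cfp, C1qa, C3ar1 and Cd55; the 6 acute phase genes with the smallest p; the 2 brightest of each marker list; and the nearest profiles. Motifs were matched in RefSeq promoters (GRCm38.p6).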

Additional observations from a re-analysis of the deposited data

Results flagged for a closer look

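The second step, E to M, differed from the first, WT to E, in the tested difference of the steps (limma, log2) for these genes. Calls lost under alternatives are counted beside each gene. The members had 3.31 (Cfb, without the brightness filter), 4.80 (C1ra), 5.77 (C1s1) and 5.25 (Serping1); only the Cfb call was lost, in 2 of 20, with quantile normalization and without E replicate 2. Of the other complement genes only those named by rule are listed. Colec12 had 4.62, Clu 3.80 and Cd93 3.04, with no call lost in 21 alternatives each. Cd59a had 0.67, with the fall in the first step, and did not keep its call in 3 of 22, all of them scalings or the mean of probe sets. Cr1l had -0.34 and did not keep its call in 11 of 22, among them without the brightness filter and without WT replicate 1, WT replicate 2, E replicate 1, E replicate 2 or M replicate 1. Among genes below the brightness limit, C2 had 2.86 and lost its call in 10 of 20, among them without WT replicate 1 or 3, E replicate 1 or 2, or M replicate 2 or 3. Itgam had 4.59 and lost it in 3 of 20, with quantile normalization and without E replicate 2 or 3. C3ar1 had 3.26 and lost it in 2 of 20, on spike-in scaling and with probe sets averaged. Over all genes above the limit, 51.2% passed this test, and without the limit 30.6%. Of the 40 other complement genes measured, 9 were called higher and 0 lower without the limit, beside 16.4% and 14.2% of all genes. Mbl1 and Vsig4, called higher, were not among the genes named by rule and were not followed under alternatives.

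Probe sets with several symbols were set aside from the comparisons and looked at only after the other values were seen. Of these, 2 carried complement members and were higher on all M than on all WT arrays, as were 28.3% of the 18194 genes with a one-symbol probe set. The share among all probe sets with several symbols was not counted. The probe set of C4a and C4b, which encode copies of C4, had 11.20, 11.07 and 11.15 in M, against 6.30, 6.29 and 6.08 in WT, and 5.87, 6.78 and 7.21 in E. Its log2 difference in M against WT was 4.92, with no test, and it cannot be assigned to either gene. The probe set of C1rb and C1ra had 8.56, 8.85 and 8.85 in M, against 5.72, 5.96 and 4.00 in WT. Its difference was 3.53, with no test, and it likewise cannot be assigned. No group had the 4 arrays that a test of single outlying arrays needs.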

How the results depend on the processing

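C1ra, C1s1, Serping1 and Cfb stayed higher in M than in WT and in M than in E, and uncalled in E against WT, in every alternative in which they were tested. Their M against WT differences ranged from 3.50 to 5.02 (C1ra), 4.25 to 5.48 (C1s1), 4.19 to 5.27 (Serping1) and 1.65 to 3.77 (Cfb); the lowest Cfb value came with an offset of 64 on the linear scale, which shrinks dim values by construction. Of 260 values of called member differences under alternatives, 2 lost their call, both of Cfb for the difference of steps: 2.47 with quantile normalization (adjusted p = 0.0501) and 2.95 without E replicate 2 (adjusted p = 0.0521). Among the 4549 brightest genes Serping1 was the 1 member tested, and it was called in M against WT, in M against E and for the difference of steps. Other complement genes were followed here only if named by rule, most of them for a small p in M against WT. Called genes outside that rule, Vtn, C8g, Mbl1 and Vsig4 among them, are not in these counts, so the shares do not stand for the whole list. For called differences of the genes followed, 653 of 757 values kept the call, 94 lost it and 10 turned. For differences not called, 681 of 698 stayed uncalled and 17 passed; only their adjusted p was followed, so their turns are not counted. Turned values were, in M against WT, Itgb2 -0.017 (spike-ins) and Cd55 -0.39 (median-centred) and -0.77 (spike-ins). In M against E they were Itgb2 -0.12 (spike-ins), Cd55 -0.48 (median-centred) and -0.73 (spike-ins) and Cr1l 0.0032 (mean of probe sets). For the difference of steps they were Cd59a -0.23 (median-centred) and -0.36 (spike-ins) and Cr1l 0.26 (mean of probe sets). The cause was not tested.

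Over all genes, E against WT gave 192 calls, and 85 among the 4549 brightest genes, 118 with quantile normalization, 848 with array weights, 756 with only these groups fitted and 99 with probe sets averaged. Leaving out 1 array gave 98 to 836, the most without M replicate 3 and the fewest without WT replicate 3; without WT replicates 1 and 2 it was 105 and 113, and without E replicates 1, 2 and 3 it was 111, 106 and 105. M against WT gave 6259 calls, 3466 among the 4549 brightest, 12299 over every one-symbol probe set and 5721 to 6334 leaving out 1 array. M against E gave 6368, and 3485, 13055 and 5782 to 6462 in the same settings. The difference of steps gave 4661, and 2633, 8154 and 3686 to 5257, with 7526 median-centred and 7055 on spike-ins. The share of M against WT calls that were higher was 36.8% as deposited, 15.97% median-centred and 11.8% on spike-ins, and the median difference of all tested genes was -0.19, -0.82 and -1.20. In E against WT the share was 21.9% as deposited and 56.0% median-centred. Without the brightness filter it was 51.2% in M against WT.

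Replicate numbers did not pair the arrays: same-numbered arrays of different groups had deviations correlated between -0.0983 and 0.0841, none over 0.1. With a replicate block the calls were 153, 6100, 6248 and 4430 in E against WT, M against WT, M against E and the difference of steps. Dim levels in WT and E limit the size of the Cfb and C1ra changes.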
